A study of Mus musculus with 8 samples.

Results

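Retinas of rd10 mice at postnatal day 21 (P21) were compared with retinas of rd10 mice at P18, the same genotype 3 days apart, to describe over all expressed genes what faded and what kept rising in the later stage of rod degeneration. The comparison was chosen by its labels and takes 4 of the 8 libraries of the series, 2 of rd10 P21 and 2 of rd10 P18, and the remaining 4 are 2 of rd10 P15 and 2 of WT P15. Each library was made from the mRNA of 1 whole retina. The rd10 mice were homozygous for a mutation in Pde6b, which encodes a catalytic subunit of the rod phosphodiesterase, and the WT mice were littermates, while the strain was not given in the sources used here. All 4 retinas compared carried the mutation and WT retinas of P18 or P21 were not analysed here, so normal maturation over these days and degeneration cannot be told apart. In a whole retina, fewer cells of a type and less RNA per cell cannot be told apart either.

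In rods, light lowers cyclic GMP through the phosphodiesterase PDE6, and the cyclic GMP-gated channel then closes. Without working PDE6, cyclic GMP builds up and rods die first, while cones, which use their own PDE6 subunits, die later. Müller glia, the radial glia that span the retina, answer such injury by raising intermediate filaments and STAT3 target genes, and microglia move into the photoreceptor layer and take up debris.

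Read counts were given for 57010 gene identifiers, of which 20457 passed the filter on low counts and were tested. Total counts ran from 28076947 to 33724562 per library, and levels are given as CPM, counts relative to the TMM-scaled library total. Gnat1, the transducin that marks rods, lay at 4461 to 6635 CPM in the 4 libraries, and Pde6b at 1283 and 1234 CPM at P18, then 964 and 1360 CPM at P21, although a point mutation cannot be read from counts. At both ages replicate 1 carried Y-linked transcripts and replicate 2 carried Xist, so within an age sex, animal and library cannot be told apart. Both rd10 P15 libraries carried Y-linked transcripts and both WT P15 libraries carried Xist. Comparisons with either P15 group are therefore not balanced for sex. The library rd10 P18 replicate 1 stood apart from the other 7. The median log2 level of the longest quintile of genes by exon length minus that of the shortest quintile, each relative to the mean of all libraries, was -0.659 in it and 0.005 to 0.198 in the others. Its part in the results was not tested, and for some lists the median is also given without it or with a correction for length. Without it, P18 is replicate 2 alone, which carried Xist, so that such a comparison is not balanced for sex.

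Few genes differed between P18 and P21 beyond the spread between the libraries. By the edgeR quasi-likelihood test, 4 of 20457 genes were called with an adjusted p below 0.05 and a log2 fold change beyond 1 in either direction, which is 0.0196% of those tested, with mt-Atp6 higher at P21 (0.00489%) and Fam177a, Prss56 and Gdf1 lower (0.0147%). At an unadjusted p under 0.05, 983 genes (4.81%) were higher and 1236 (6.04%) were lower. DESeq2, which the study used, called 120 of 19147 genes (0.627%), 51 higher and 69 lower, and all 4 genes above were among them. No other gene had an edgeR adjusted p below 0.05 at any fold. This includes the genes given below with a DESeq2 adjusted p. In 4295 genes (21%) both P21 libraries lay above both P18 libraries, and in 4500 (22%) both lay below. Counts of list members without overlap in the following paragraphs are to be read beside these shares. The median log2 fold change over all genes was -0.0012. With P15 added, 410 genes (2%) lay in rising order over P15, P18 and P21 without overlap, 421 (2.06%) in falling order, 1890 (9.24%) were highest at P18 and 1704 (8.33%) were lowest there.

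Prss56, a serine protease made by Müller glia and needed for normal eye size, was the called gene with the clearest place in the retina. The gene lies at chr1:87183313-87188405 on the plus strand (GRCm38, GENCODE M21). Its level was 23.3 and 19.0 CPM in the rd10 P15 libraries, 117 and 54.8 at P18, and 1.91 and 1.92 at P21. Both P21 libraries lay far below every other library, including the WT P15 libraries at 10.8 and 14.2 CPM. It fell from P18 to P21 (log2 fold change -5.48, SE 0.40, adjusted p = 0.00391), and P21 also lay below rd10 P15 (-3.46, adjusted p = 0.0158), a comparison that shares the P21 libraries. Without P21 replicate 1 or P21 replicate 2 the difference from P18 was -5.48 and -5.49 and the call was lost (adjusted p = 0.0715 and 0.134). Of the 11 tested genes of eye growth and ocular matrix, 2 lay higher without overlap and Prss56 alone lower, and the collagen Col2a1 gave 0.28 and the growth factor Tgfb2 gave 0.07.

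mt-Atp6, the mitochondrially encoded subunit 6 of ATP synthase, was the single gene called higher. It was at 483 and 395 CPM at P18, then 1787 and 1816 CPM at P21, against 427 and 434 in rd10 P15 and 2641 and 2539 in WT P15. It rose by 2.04 on the log2 scale (SE 0.14, adjusted p = 0.00391), while the 13 protein-coding genes of the mitochondrial genome had a median of -0.12 (0.11 with the length correction), with 7 lower without overlap and mt-Atp6 alone higher. mt-Atp8, whose frame overlaps that of mt-Atp6 at M:7927-8607, was at 402 and 470 CPM at P18 and 438 and 468 at P21, a difference of 0.05 (SE 0.13), and how reads of the overlap were assigned was not given in the sources used here. Gdf1, a ligand of the TGF-beta family, fell from 940 and 537 counts to 11 and 5 (log2 fold change -6.47, SE 0.56, adjusted p = 0.00992). It shares exon sequence with Cers1 and Upf1 (chr8:70329817-70331587), and Cers1, a ceramide synthase, had 494 and 493 counts at P18 and 1034 and 952 at P21, so the division of reads between both transcripts is uncertain. Without P21 replicate 1 or P21 replicate 2 the call of Gdf1 was lost (adjusted p = 0.0811 and 0.163). Fam177a had 978 and 869 counts at P18 and 0 in both P21 libraries, at least 600-fold lower with a floor of 3 counts (adjusted p = 4.91e-05). Ttc30a2 shared this pattern, with 66 and 111 counts at P18 and 0 at P21. A second identifier of Nnt, the transhydrogenase of the inner mitochondrial membrane, had the opposite one, with 0 counts in the other 6 libraries and 516 and 285 at P21 (ENSMUSG00000116207, at least 269-fold higher, adjusted p = 0.0663), while the first identifier, which covers the same locus on chromosome 13, had 348 and 399 counts at P18 and 231 and 219 at P21. In the P21 libraries 3 identifiers were thus listed all or none, and as neither strain nor annotation was given in the sources used here, the fold of Fam177a cannot be told apart from a difference in either.

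**Figure D1:**
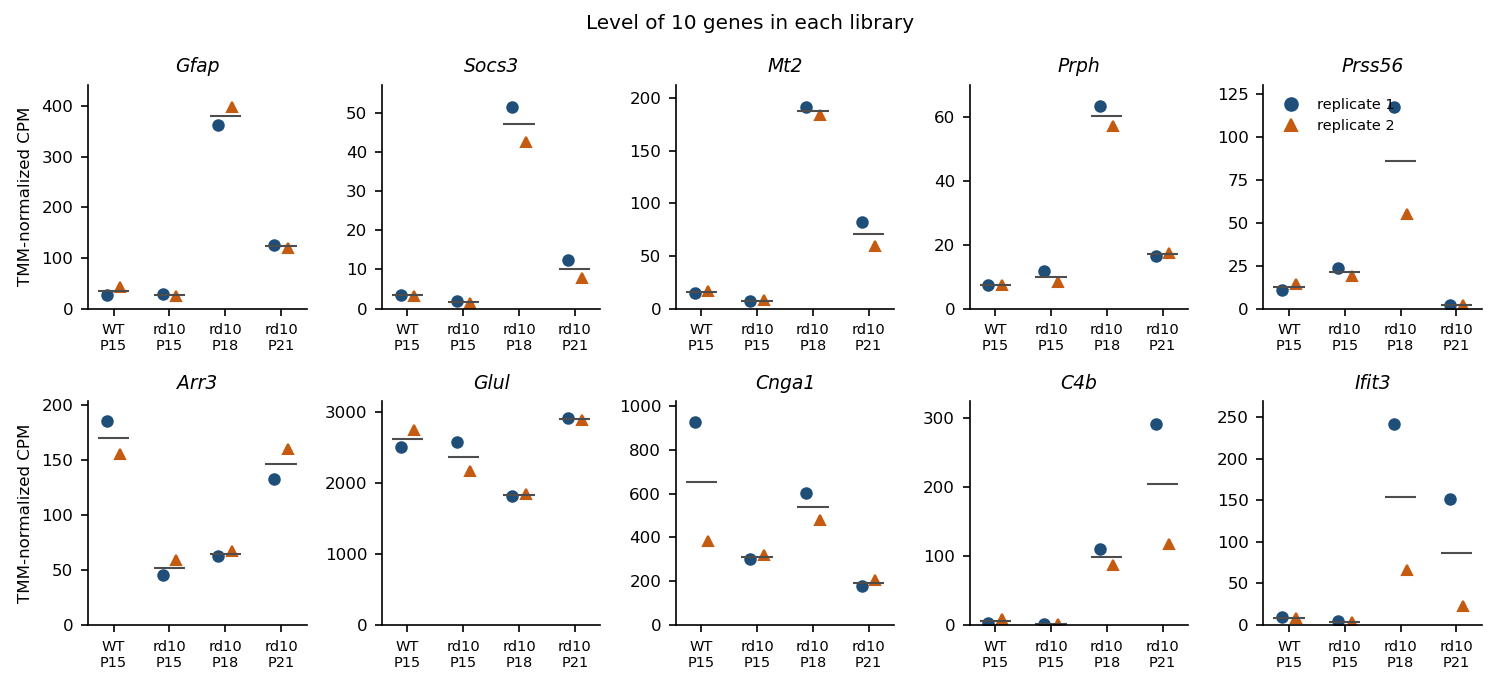
Level of 10 genes in each of the 8 libraries, in TMM-scaled CPM on a linear axis, by group (WT P15, rd10 P15, rd10 P18, rd10 P21). Points are single libraries and bars are the mean of 2. Gfap, Socs3, Mt2 and Prph are highest at P18 and lower again at P21, Arr3 and Glul are highest among the rd10 ages at P21, and Ifit3 is split between the libraries of one age.

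The genes that mark reactive Müller glia were high at P18 and lay lower at P21. Of 16 genes, 13 had both P21 libraries below both P18 libraries, against 22% of all genes, and none had both above. Their median log2 fold change was -1.15, -1.10 without P18 replicate 1 and -1.10 with the length correction. At an unadjusted p under 0.05, 12 of 16 were lower and none higher, none passed the adjusted p, and DESeq2 called 7 lower, where it called 0.36% of all genes lower. All 13 were also highest at P18 of the 3 rd10 ages. At P21 the list still lay above rd10 P15, with a median of 1.85 and 13 of 16 genes above 0 in a comparison that shares the P21 libraries.

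Gfap, the intermediate filament of astrocytes and stressed Müller glia, was at 363 and 399 CPM at P18, then 126 and 120 CPM at P21, against 28.1 and 25 in rd10 P15. The libraries of the ages did not overlap, and the P21 level was between the P18 level and that of P15. The difference was -1.63 on the log2 scale (SE 0.21, adjusted p = 0.0665 by edgeR and 1.95e-09 by DESeq2). Nes and Vim, filaments of immature and reactive glia, gave -1.26 and -1.03 (DESeq2 adjusted p = 2.99e-05 and 0.00947), and Vim at P21, at 130 and 209 CPM, was back in the range of rd10 P15. Socs3, the feedback inhibitor of JAK and STAT3 signalling, was at 51.6 and 42.7 CPM at P18, then 12.3 and 7.83 CPM at P21 (log2 fold change -2.23, SE 0.27, adjusted p = 0.0663 by edgeR and 1.86e-09 by DESeq2). Cebpd and Bcl3, transcription regulators induced with STAT3, gave -1.59 and -2.07 (DESeq2 adjusted p = 3.95e-06 and 0.00165). Stat3 itself was at 194 and 205 CPM at P18, then 154 and 168 CPM at P21, a smaller step of -0.31 (SE 0.12, edgeR adjusted p = 0.44), and at P21 it remained above rd10 P15 by 1.39 (adjusted p = 0.00479).

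Secreted members of the list spread more within P21. Lcn2, an iron-siderophore carrier of the acute phase, was at 269 and 210 CPM at P18, then 50.4 and 11.9 CPM at P21 (log2 fold change -2.94, SE 0.73, DESeq2 adjusted p = 0.038). Serpina3n, a secreted protease inhibitor, was at 212 and 241 CPM and then at 131 and 57.6 CPM, and Timp1, an inhibitor of metalloproteinases, at 29.2 and 21.3 CPM and then at 5.17 and 1.26 CPM. In these 3 genes replicate 1 of P21 stayed closer to P18 than replicate 2 did. Cp, the copper-binding ferroxidase ceruloplasmin, gave -0.85 (DESeq2 adjusted p = 0.0151), and the oncostatin M receptor Osmr gave -0.64 (0.336). S1pr3, Cd44 and Tnc overlapped between the ages.

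STAT dimers bind palindromes of the form TTCNNNGAA, and the promoters of 2 of the 14 reactive genes with a window, Socs3 and Gfap, held that word on either strand between 250 bases before and 50 after the start (14.3%, against 8.3% of all 32851 windows). They are shown because Socs3 and Gfap had the smallest p of the list, from 200 bases before to 20 after the start (RefSeq, GRCm38.p6, minus strand, Socs3 at chr11:117969347-117969566 and Gfap at chr11:102897181-102897400), with the match in capitals.
Socs3: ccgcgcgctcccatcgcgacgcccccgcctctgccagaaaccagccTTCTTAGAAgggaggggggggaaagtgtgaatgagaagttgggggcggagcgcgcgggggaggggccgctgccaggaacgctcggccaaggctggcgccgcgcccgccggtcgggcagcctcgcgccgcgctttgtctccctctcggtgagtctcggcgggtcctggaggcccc
Gfap: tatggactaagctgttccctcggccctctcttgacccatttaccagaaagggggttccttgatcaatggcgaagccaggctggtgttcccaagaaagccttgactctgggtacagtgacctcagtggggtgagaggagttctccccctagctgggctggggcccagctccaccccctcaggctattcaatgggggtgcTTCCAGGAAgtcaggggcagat
The match starts 154 bases before the start of Socs3 and 2 bases before that of Gfap. A match is a description of the letters only.

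Signals that act on Müller glia and photoreceptors had mixed values. Lif, the cytokine that induces Müller glia to support photoreceptors, was at 4.92 and 9.14 CPM at P18, then 1.71 and 2.24 CPM at P21 (log2 fold change -1.83, SE 0.71, unadjusted p = 0.031). Edn2, the endothelin that stressed photoreceptors release, was at 34.4 and 28 CPM at P18 and 27.5 and 21.4 CPM at P21, against 0.191 and 0.141 in rd10 P15. The difference from P18 was -0.35 (SE 0.35, adjusted p = 0.728), and at P21 the gene was 7.16 log2 units above rd10 P15 (adjusted p = 0.00247). Over the 12 genes of survival signalling the median was -0.04 (-0.14 without P18 replicate 1 and -0.21 with the length correction). Of them 1 lay higher and 4 lower without overlap, against 21% and 22% of all genes.

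Metallothioneins and stress genes lay lower at P21. Mt1, which binds zinc and copper, was at 203 and 199 CPM at P18, then 92.0 and 71.2 CPM at P21 (log2 fold change -1.30, SE 0.15, adjusted p = 0.0663 by edgeR and 4.90e-08 by DESeq2). Mt2 was at 192 and 184 CPM and then at 82.2 and 59.7 CPM (-1.41, SE 0.18, DESeq2 adjusted p = 1.68e-07). At P21 both were above rd10 P15, by 1.95 and 3.23 log2 units (adjusted p = 0.00412 and 0.00116). The antioxidant genes listed with them moved less, so that the list of 16 had a median of -0.18 (-0.28 with the length correction), with 8 lower and 1 higher without overlap. Glutathione peroxidase Gpx4 (-0.66) and superoxide dismutase Sod1 (-0.45) were lower at an unadjusted p under 0.05, while Nqo1, Gclm and Cat overlapped between ages. For Gpx4 and Sod1, the level in P18 replicate 1, 576 and 155 CPM, was the highest of the 8 libraries, and without it the differences were -0.30 and -0.15.

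Of 15 genes of the unfolded protein response, 9 lay lower without overlap and 1 higher, with a median of -0.36 (-0.42 without P18 replicate 1 and -0.28 with the length correction). Hspa5, the main chaperone of the endoplasmic reticulum, was at 653 and 567 CPM at P18, then 357 and 329 CPM at P21, where it had been at 392 and 307 CPM in rd10 P15. The P21 libraries thus lay in the range of P15 (log2 fold change from P18 -0.83, SE 0.17, DESeq2 adjusted p = 0.00663, and from P15 -0.02). Sdf2l1, a chaperone partner in the same compartment, gave -1.16 (DESeq2 adjusted p = 0.00587) and the disulfide isomerase Pdia4 gave -0.60 (0.02). The stress transcription factor Ddit3 gave -0.73 (unadjusted p = 0.0039), and Atf4, Asns and Sesn2 overlapped between ages.

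The immediate early genes, which cells switch on within minutes of a stimulus, were also lower in 9 of 15 genes without overlap, against 22% of all genes, with a median of -0.26 (-0.41 without P18 replicate 1 and -0.15 with the length correction). Jun was at 111 and 106 CPM at P18, then 64.0 and 66.8 CPM at P21, back at the 73.3 and 67.9 CPM of rd10 P15 (log2 fold change -0.73, SE 0.12, DESeq2 adjusted p = 0.00363). Junb gave -1.01 and Atf3, a factor of injured neurons and glia, gave -1.61 (DESeq2 adjusted p = 0.00926 and 0.00483). Npas4, a neuronal activity gene, ran the other way, from 5.10 and 6.24 CPM to 9.16 and 11.2 CPM (0.84, SE 0.34, unadjusted p = 0.038). Of 16 genes of cell death 8 lay lower without overlap, with a median of -0.54. All 16 had a log2 fold change below 0, but 14 without P18 replicate 1, where the median was -0.42 and the pore-forming Bax gave -0.18 in place of -0.48. Of 14 cell cycle genes 10 lay lower without overlap, with a median of -1.23 (-0.74 without P21 replicate 2), though most were below 10 CPM in every library and none passed the adjusted p.

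**Figure D2:**
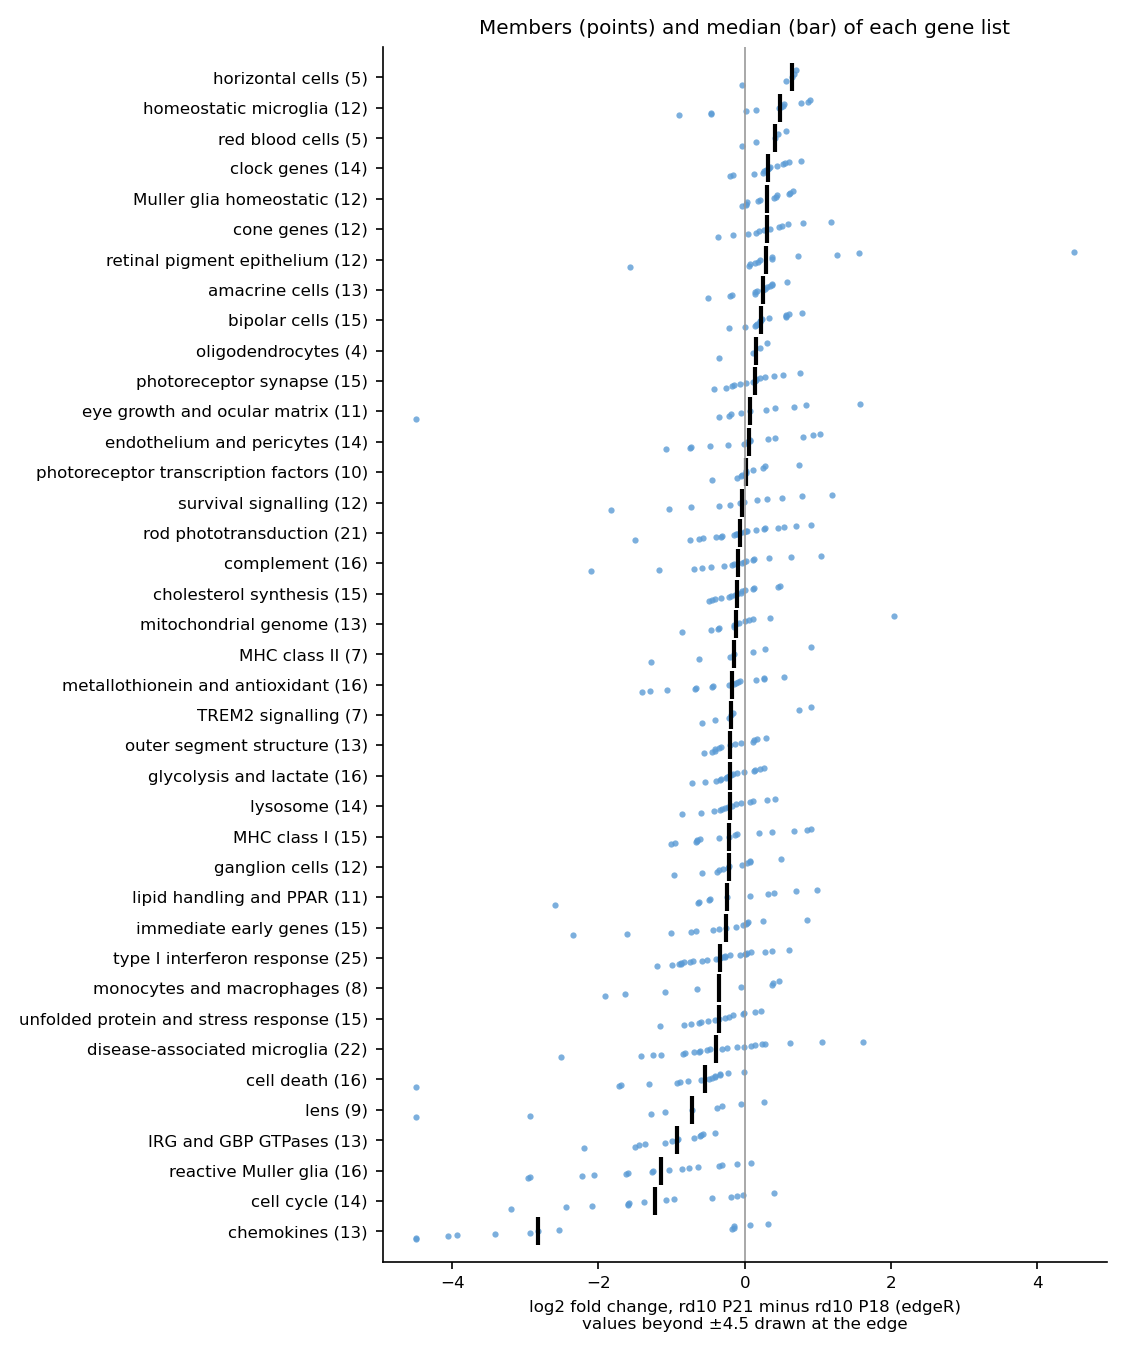
edgeR log2 fold change of rd10 P21 minus rd10 P18 for the members (points) and the median (bar) of 39 gene lists. Values beyond 4.5 on either side are drawn at the edge (6 members). Reactive Müller glia, chemokines and cell cycle have medians below -1, and horizontal cells, homeostatic microglia, red blood cells, clock genes, homeostatic Müller glia and cones have medians at or above 0.30.

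Cone genes lay higher at P21. Of 12, 7 had both P21 libraries above both P18 libraries, against 21% of all genes, and 1 had both below, with a median of 0.30 (0.28 without P18 replicate 1 and 0.40 with the length correction). Arr3, the cone arrestin that shuts off cone opsins, was at 45.3 and 58.7 CPM in rd10 P15, 62.3 and 67.3 CPM at P18 and 132 and 160 CPM at P21. The libraries rose in order over the 3 ages without overlap, and P21 approached the WT P15 libraries at 185 and 155 CPM. The step from P18 was 1.18 (SE 0.18, adjusted p = 0.144 by edgeR and 1.64e-05 by DESeq2), and the step from rd10 P15 was 1.49 (adjusted p = 0.0193). Pde6c, the catalytic subunit of cone phosphodiesterase, gave 0.59 (SE 0.14), and Cnga3, a subunit of the cone cyclic GMP-gated channel, gave 0.80 (SE 0.19), with unadjusted p = 0.0028 and 0.0027. The cone opsins Opn1mw and Opn1sw gave 0.51 and 0.26. Gnb3, the cone beta transducin that bipolar cells also express, was the member below, at 594 and 524 CPM and then at 516 and 485 CPM.

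The homeostatic genes of Müller glia ran opposite to the reactive ones. Of 12, 7 lay higher without overlap and none lower, 11 had a log2 fold change above 0, and the median was 0.30 in each of the fits with all libraries and without P18 replicate 1 and 0.32 with the length correction. Glul, glutamine synthetase, which clears glutamate, was at 1814 and 1847 CPM at P18, then 2915 and 2884 CPM at P21. Its P18 libraries were the lowest of all 8 and its P21 libraries the highest (log2 fold change 0.66, SE 0.14, DESeq2 adjusted p = 0.00901, below the fold threshold). Rlbp1, the retinaldehyde carrier, Car14, a membrane carbonic anhydrase, and Dkk3, a secreted Wnt modulator, gave 0.40, 0.62 and 0.44, each higher without overlap. Aqp4, the water channel of glial endfeet, was at 113 and 169 CPM at P18, then 242 and 187 CPM at P21 (0.60, SE 0.21). Clu, a secreted chaperone, overlapped between P18 and P21 and stayed above rd10 P15 (1.69, adjusted p = 0.0178).

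Genes of inner retinal neurons were split by cell class. Of 15 bipolar cell genes 8 lay higher without overlap and none lower, with a median of 0.22. Trpm1, the cation channel of ON bipolar cells, was at 188 and 309 CPM at P18, then 371 and 386 CPM at P21 (0.61, SE 0.25), and protein kinase C alpha, Prkca, was at 266 and 411 CPM and then at 507 and 489 CPM (0.56, SE 0.22). In both genes P18 replicate 1 was the lowest of the 8 libraries, and without it the differences were 0.29 and 0.28. The 5 horizontal cell genes gave a median of 0.65, which became 0.31 without that library and 0.40 with the length correction, and the 13 amacrine genes a median of 0.24, which became 0.06. Ganglion cell genes went the other way, with 6 of 12 lower and 1 higher without overlap and a median of -0.22 (-0.18 without P18 replicate 1 and -0.12 with the length correction). The neurofilaments Nefl, Nefm and Nefh, which support long axons, lay in falling order over the 3 ages without overlap. Nefm was at 552 and 590 CPM in rd10 P15, 396 and 421 at P18 and 318 and 309 at P21 (P21 minus P18 -0.38, SE 0.12, and P21 minus P15 -0.87, adjusted p = 0.0342). Prph, the filament peripherin of ganglion cells and peripheral neurons, was at 63.3 and 57.2 CPM at P18, then 16.5 and 17.3 CPM at P21, with 11.7 and 8.25 CPM in rd10 P15 (log2 fold change -1.83, SE 0.20, adjusted p = 0.0554 by edgeR and 2.97e-10 by DESeq2).

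**Figure D3:**
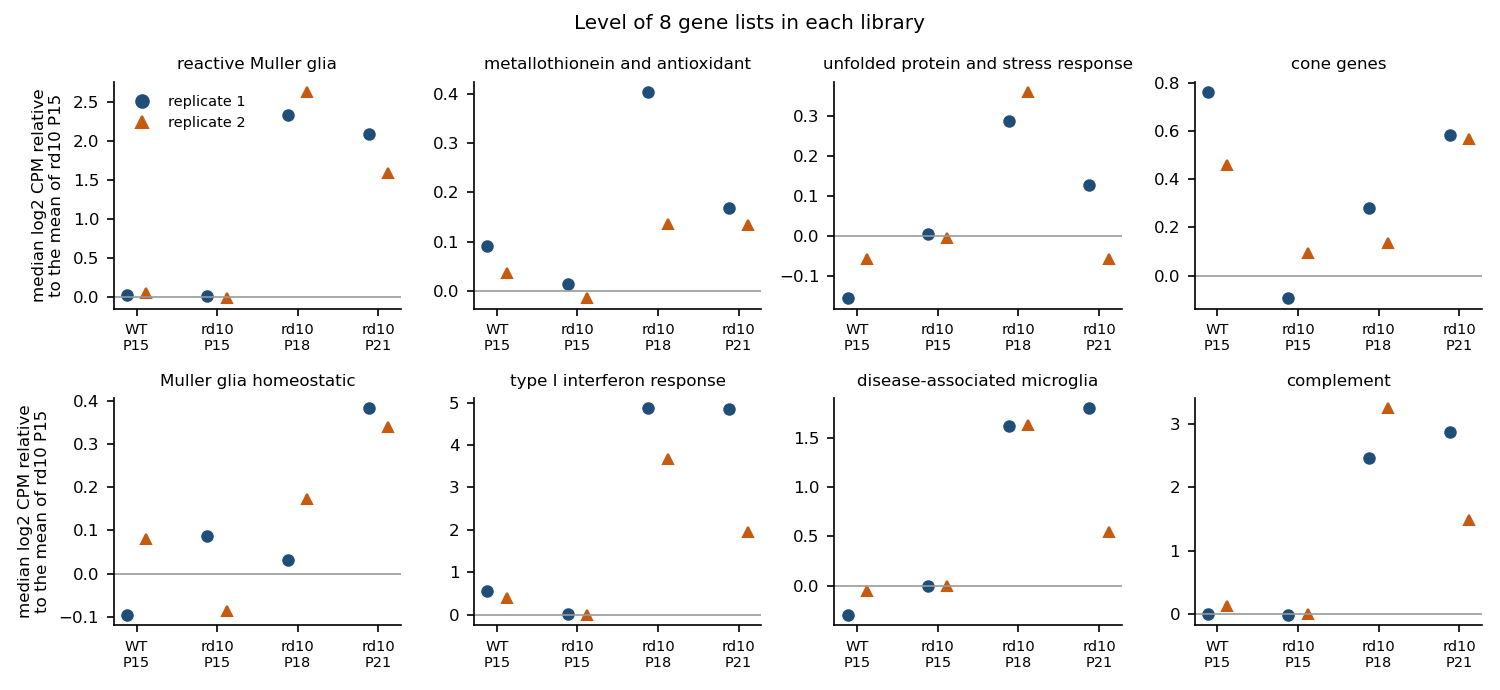
Median level of 8 gene lists in each of the 8 libraries, on the log2 scale relative to the mean of the rd10 P15 libraries, by group (WT P15, rd10 P15, rd10 P18, rd10 P21). Reactive Müller glia lie at 2.33 and 2.63 at P18 and at 2.09 and 1.59 at P21, cones at 0.28 and 0.13 and then at 0.58 and 0.57, and the type I interferon list at 4.87 and 3.67 and then at 4.84 and 1.94.

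Rod genes, already below WT at P15, showed no common step from P18 to P21. Over 21 rod phototransduction genes the median was -0.06 (0.07 without P21 replicate 1 and -0.27 without P21 replicate 2), with 3 higher and 7 lower without overlap, while the median of P21 minus rd10 P15 was -0.53, with 3 genes above 0. Gnat1, rod transducin, was at 6635 and 6491 CPM and then at 4461 and 5500 CPM (-0.40, SE 0.14, unadjusted p = 0.021). Cnga1, the rod subunit of the cyclic GMP-gated channel, was at 600 and 481 CPM at P18, then 178 and 204 CPM at P21, below the 303 and 318 CPM of rd10 P15 (log2 fold change -1.5, SE 0.37, adjusted p = 0.412 by edgeR and 0.00174 by DESeq2). It was the only rod gene that DESeq2 called. Gngt1, the gamma subunit of rod transducin, was at 814 and 514 CPM and then at 365 and 426 CPM (-0.75, SE 0.21), and Grk1, a receptor kinase of the photoreceptor outer segment, at 845 and 1151 CPM and then at 1305 and 1592 CPM (0.54, SE 0.20). Gngt1, Pde6g and Guca1b were higher in P18 replicate 1 than in replicate 2, and without replicate 1 their differences were -0.38, -0.29 and -0.42 in place of -0.75, -0.57 and -0.63. None of the 13 outer segment genes lay higher and 4 lay lower, against 22% of all genes, and their median of -0.20 ran from -0.50 without P21 replicate 2 to -0.01 without P21 replicate 1.

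Among photoreceptor transcription factors the median was 0.01, with Crx, Otx2 and Neurod1 overlapping between ages. Mef2c, a MADS-box factor of rods, was at 11.5 and 12.1 CPM in rd10 P15, 20 and 18.8 at P18 and 28.7 and 35.9 at P21 (P21 minus P18 0.74, SE 0.22, and P21 minus P15 1.46, adjusted p = 0.0411), still below the WT P15 libraries at 104 and 68.8 CPM. Its relative Mef2d, named by its small p, was at 139 and 225 CPM at P18, then 458 and 499 CPM at P21, with rd10 P15 at 442 and 458 CPM (log2 fold change 1.39, SE 0.21, adjusted p = 0.144 by edgeR and 1.22e-06 by DESeq2). Mef2d therefore had a trough at P18, lower in the library that stood apart.

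CRX and OTX2, the homeodomain factors of photoreceptors, bind TAATCC, and 8 of the 14 rod genes with a promoter window held these letters on either strand (57.1%, against 7.06% of all windows). The match in Gngt1 is shown, from a rod gene that was lower at P21 without overlap. It lies 44 bases before the start of the gene, in the window chr6:3993808-3994027 on the plus strand, with the reverse complement of TAATCC in capitals (RefSeq, GRCm38.p6).
Gngt1: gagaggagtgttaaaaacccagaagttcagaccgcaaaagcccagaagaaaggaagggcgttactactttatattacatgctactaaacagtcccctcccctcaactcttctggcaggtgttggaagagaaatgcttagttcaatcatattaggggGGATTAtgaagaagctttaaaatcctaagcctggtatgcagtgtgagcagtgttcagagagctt

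Chemokines showed the steepest lower values, at low levels. Of 13, 7 lay lower without overlap and 1 higher, and the median was -2.83. Of these, 12 were tested without P18 replicate 1, and their median was -2.68 with that library and -0.72 without it. Ccl2, which recruits monocytes, was at 17.4 and 4.88 CPM at P18, then 1.2 and 0.105 CPM at P21, with no count in rd10 P15 (log2 fold change -4.06, SE 1.24, DESeq2 adjusted p = 0.492). Ccl12, its close relative, was at 8.29 and 3.84 CPM and then at 0.571 and 0.210 CPM (-3.93, SE 0.73, adjusted p = 0.345 by edgeR and 0.000694 by DESeq2). Cxcl10, an interferon-induced chemokine, was at 32.5 and 6.84 CPM and then at 5.57 and 1.19 CPM. In all 3 genes P18 replicate 1 was the highest library and P21 replicate 2 the lowest of the 4.

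Genes of the microglial lists were split in sign, and which cells of the whole retina expressed them was not tested. The 22 genes of disease-associated microglia, a state named for phagocytic microglia of the degenerating brain, had a median of -0.39. Of them 4 lay higher and 10 lower without overlap, against 21% and 22% of all genes. All 22 were higher in P21 replicate 1 than in P21 replicate 2, and the median was 0.0024 between the libraries numbered 1, -0.72 between those numbered 2, and -0.87 without P21 replicate 1. Apoe, the lipid carrier, was at 286 and 329 CPM in rd10 P15, 533 and 338 at P18 and 1061 and 746 at P21, in rising order (P21 minus P18 1.05, SE 0.38, adjusted p = 0.44). The 7 genes of TREM2 signalling together summed to 11.5 and 11.5 CPM in rd10 P15. Trem2, the lipid receptor of microglia, was at 5.13 and 3.25 CPM at P18, then 9.99 and 5.70 CPM at P21 (0.91, SE 0.41, adjusted p = 0.472). Igf1 was also higher without overlap, at 0.61 (SE 0.16). Spp1, osteopontin, was at 38.4 and 40.0 CPM at P18, then 20 and 15.5 CPM at P21, at the level of rd10 P15 (-1.14, SE 0.24, DESeq2 adjusted p = 0.00897). Lgals3, galectin-3, gave -1.42, and the tetraspanins Cd63 and Cd9 gave -0.81 and -0.63, each lower without overlap. Msr1, a scavenger receptor, was at 5.43 and 2.84 CPM and then at 0.828 and 0.524 CPM (-2.60, DESeq2 adjusted p = 0.0446). Itgam, the CD11b integrin chain, was at 6.86 and 21.4 CPM and then at 3.63 and 2.97 CPM (-2.10, DESeq2 adjusted p = 0.0339).

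The homeostatic microglial receptors P2ry12 and Cx3cr1 differed in sign. P2ry12, the purinergic receptor of surveying microglia, was at 4.41 and 3.75 CPM at P18, then 9.02 and 6.08 CPM at P21 (0.89, SE 0.31), on either side of rd10 P15 at 7.86 and 8.07. Cx3cr1, the fractalkine receptor, was at 20.2 and 26.8 CPM and then at 7.54 and 17.8 CPM (-0.89, SE 0.37). Over the 12 homeostatic genes the median was 0.48 (-0.11 without P21 replicate 1). Of them 3 lay higher and 1 lower without overlap, against 21% and 22% of all genes. C4b, a complement component made by glia in injury, was at 1.05 and 0.776 CPM in rd10 P15, 111 and 87.1 at P18 and 292 and 117 at P21. It lay in rising order over the 3 ages, but its P21 libraries differed by more than those of P18 (P21 minus P18 1.05, SE 0.58, adjusted p = 0.544, and P21 minus P15 7.79, adjusted p = 0.0323). Over 16 complement genes the median was -0.10, and 0.14 without P18 replicate 1. It ran from -0.86 without P21 replicate 1 to 0.34 without P21 replicate 2. Of these genes 2 lay higher and 2 lower without overlap, against 21% and 22% of all genes.

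Between P18 and P21 the interferon genes were set apart by library more than by age. All 25 type I interferon response genes and all 13 of the IRG and GBP GTPases, which attack pathogen vacuoles, were higher in replicate 1 than in replicate 2 at both P18 and P21, as were 14 of 15 MHC class I genes, against 5555 of 20457 genes (27.2%). The excess of replicate 1 had a median of 1.29 log2 units at P18 and 2.53 at P21 in the type I list. It was 0.01 in rd10 P15, but both libraries there carried Y-linked transcripts, so this is not the same contrast. The list was also low in rd10 P15, at a sum of 129 and 129 CPM against 1862 and 820 CPM at P18. The cause of the excess was not tested. From P18 to P21 the type I list had a median of -0.34, but -0.02 between the libraries numbered 1 and -1.35 between those numbered 2. It was 0.45 without P18 replicate 1, which sets P18 replicate 2 alone against both P21 libraries. That value therefore also holds the excess of replicate 1 at P21. One of 25 lay lower without overlap, none higher, and none passed an unadjusted p of 0.05. The 13 IRG and GBP genes had a median of -0.92 and were all below 0, but without P18 replicate 1 the median was 0.01 and 7 were above 0. All 25 type I genes were above rd10 P15 at P21, with a median of 4.27. Ifit3, an interferon-induced tetratricopeptide protein, was at 243 and 66.4 CPM at P18, then 152 and 22.4 CPM at P21, with 4.39 and 3.88 CPM in rd10 P15 (-0.83, SE 0.96, adjusted p = 0.779). The P18 and P21 libraries interleave, and both lie above P15. Gbp2, a guanylate-binding protein, was at 117 and 40.0 CPM and then at 45.1 and 10.1 CPM (-1.51, SE 0.84).

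The interferon-stimulated response element, searched as 2 copies of GAAA with 2 free bases between them on either strand, was in the windows of 10 of 16 type I genes (62.5%) and of all 9 IRG and GBP genes with a window (100%), against 3.44% of all windows. The promoters of Gbp2 (chr3:142620463-142620682, plus strand) and Ifit3 (chr19:34583329-34583548, plus strand) are shown because they hold that word in the lists that split by library, with the matches in capitals, 1 in Gbp2 and 2 in Ifit3, each as the reverse complement (RefSeq, GRCm38.p6).
Gbp2: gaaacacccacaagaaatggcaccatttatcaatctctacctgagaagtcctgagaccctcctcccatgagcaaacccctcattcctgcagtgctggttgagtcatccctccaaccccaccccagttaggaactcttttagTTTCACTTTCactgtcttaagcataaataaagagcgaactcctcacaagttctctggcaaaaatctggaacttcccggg
Ifit3: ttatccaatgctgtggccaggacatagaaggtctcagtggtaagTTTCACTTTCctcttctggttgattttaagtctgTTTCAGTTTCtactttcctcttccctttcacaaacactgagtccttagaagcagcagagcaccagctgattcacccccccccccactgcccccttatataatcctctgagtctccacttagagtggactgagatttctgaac

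Further genes with the largest or surest differences were of mixed roles. Zfp930, a zinc finger gene, was at 1.52 and 0.347 CPM at P18, then 10.1 and 9.86 CPM at P21, with 6.87 and 10.8 CPM in rd10 P15 (3.41, SE 0.58, adjusted p = 0.215 by edgeR and 1.88e-07 by DESeq2). Gramd1b, a sterol transporter between plasma membrane and endoplasmic reticulum, was at 67.7 and 166 CPM and then at 559 and 604 CPM (2.32, SE 0.53, adjusted p = 0.412 by edgeR and 4.44e-06 by DESeq2), above the 260 and 205 CPM of rd10 P15. Cav1, the coat protein of caveolae, was at 16.3 and 10.9 CPM and then at 74.6 and 52.1 CPM (2.22, SE 0.58, adjusted p = 0.429 by edgeR and 0.000584 by DESeq2). Rhobtb1 and Dnajc1, a GTPase-related protein and a chaperone partner of the endoplasmic reticulum, gave 1.47 and 0.97 (adjusted p = 0.178 and 0.213 by edgeR, 0.000112 and 0.0013 by DESeq2). Csnk1g1, Dnal1 and Zfp961 gave 2.45, 2.37 and 2.28 with wide errors. Arg1, arginase 1, was at 6.86 and 6.11 CPM at P18, then 0.286 and 0.734 CPM at P21, the level of rd10 P15 (-3.67, SE 0.61, adjusted p = 0.213 by edgeR and 3.49e-05 by DESeq2). AL731706.1 and Pcdhgb4 gave -5.50 and -3.03 and were high at P18 in replicate 1 alone, at 13.3 against 0.441 CPM and at 108 against 11.5 CPM. Gm44502, which shares exon sequence with Chkb and Cpt1b, had no count at P18 and 12.6 and 11.9 CPM at P21.

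Gene length tracked the difference between the ages over all genes. The median log2 fold change was -0.24 in the shortest quintile of 3972 genes and 0.21 in the longest. It ran from -0.36 to 0.40 between P21 replicate 1 and P18 replicate 1, and from -0.04 to 0.02 between P21 replicate 1 and P18 replicate 2. Without overlap, 13.4% of the shortest quintile and 35.1% of the longest were higher, and 29.6% and 9.12% were lower. With the length correction, reactive Müller glia, cones and homeostatic Müller glia kept medians of -1.10, 0.40 and 0.32, and 13 genes were called, among them Gfap, Socs3 and Prph (adjusted p = 0.0493 in each).

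**Figure D4:**
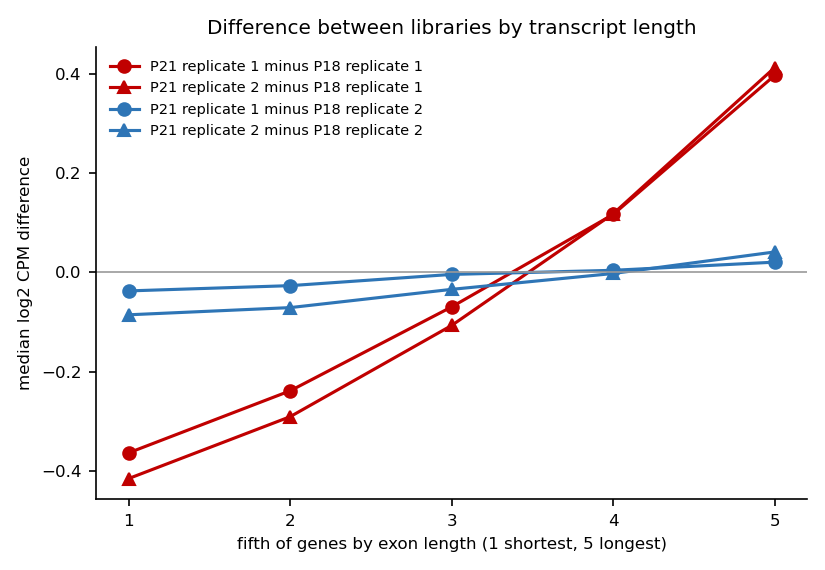
Median log2 CPM difference of rd10 P21 minus rd10 P18 in each quintile of genes by exon length, for the 4 pairs of libraries. The lines against P18 replicate 1 climb from -0.36 and -0.42 to 0.40 and 0.41, and those against P18 replicate 2 stay between -0.09 and 0.04.

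Markers of neighbouring tissues were low or split. Of 12 genes of the retinal pigment epithelium 3 lay higher and 1 lower without overlap, against 21% and 22% of all genes. Their summed level was 52.1 and 33.5 CPM at P18 and 48.4 and 52.2 CPM at P21. This was far under the 297 and 338 CPM of rd10 P15, while the WT P15 libraries were at 53.4 and 192 CPM. Hemoglobin and the other red blood cell genes summed to 160 and 56.8 CPM at P18 and to 125 and 133 CPM at P21. The lens list summed to between 36.3 and 48.4 CPM, nearly all of it Cryab, and Mip and most other lens crystallins were at or near 0. Of 11 markers of neutrophils and lymphocytes 1 passed the filter. The part of these cells in the results was not tested.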

How the data were processed

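Gene-level read counts of 8 whole-retina mRNA libraries were taken as the authors deposited them. The submitters' processing notes name HISAT2 without a version, and the genome build, annotation and counting strand were not given in the sources used here. Identifiers were matched to GENCODE M21 (52029 of 57010 named).

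Genes passing edgeR's filter by group (minimum count 10, minimum total 15) were TMM-scaled and tested with edgeR 4.0.16 in R 4.3.3 (quasi-likelihood, robust, all 8 libraries, 4 residual degrees of freedom) with Benjamini-Hochberg adjustment, and called with an adjusted p below 0.05 and a log2 fold change beyond 1 in either direction. All p-values are two-sided. An exact permutation test of 2 against 2 libraries cannot go below p = 0.333. Nothing in the labels ties libraries to separate litters, so p-values measure the spread between these libraries. Levels are CPM, on the log2 scale with a prior of 2 counts. A group at 0 was set to a floor of 3 counts, which covers counting error only.

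Alternatives were DESeq2 1.42.0, other scaling, no filter, a replicate block, a term for sex, each library left out and, chosen after seeing the data, an offset for exon length. The 42 gene lists were chosen with earlier results of these data known. Named genes were those called, the 8 largest differences each way among protein-coding genes with an unadjusted p under 0.05, no overlap and a mean count of at least 100, the 6 smallest p each way, and list members. Any other gene was named after its values were seen. Promoters and motifs come from RefSeq (GRCm38.p6). No library was left out. Results for some genes are not reported here.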

Additional observations from a re-analysis of the deposited data

Results flagged for a closer look

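In all, 9 gene lists had medians of opposite sign in the 2 pairs of same-numbered libraries. The pairs are P21 minus P18 between the libraries numbered 1, which carried Y-linked transcripts, and between those numbered 2, which carried Xist. Each pair is 1 library against 1, 39 lists were compared, and the difference between the pairs was not tested. Sex, animal and library cannot be told apart here.

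The immune lists lay higher at P21 in the first pair and lower in the second. The median log2 difference was 0.69 and -0.17 over 12 genes of homeostatic microglia, 0.25 and -0.72 over 7 of TREM2 signalling, and 0.24 and -0.66 over 16 of complement. It was 0.17 and -0.77 over 15 genes of MHC class I and 0.51 and -1.44 over 7 of MHC class II. In the fit of all libraries these MHC medians were -0.21 and -0.14, and without P18 replicate 1 they were 0.25 and 0.36. The latter set P18 replicate 2 alone, with Xist, against both P21 libraries and are not balanced for sex. Cd74, the invariant chain of class II, was at 16.3 and 12 CPM at P18, then 31.3 and 3.08 CPM at P21. B2m, the light chain of class I, was at 279 and 117 CPM and then at 356 and 80.9 CPM.

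Lists of tissue next to the neural retina went the other way. The first and the second pair gave -0.64 and 0.56 over 11 genes of eye growth and ocular matrix, -0.31 and 0.99 over 12 of the retinal pigment epithelium, and -0.54 and 1.42 over 5 of red blood cells. In the fit of all libraries the medians were 0.07, 0.29 and 0.41, and without P18 replicate 1 they were 0.39, 0.88 and 1.39. Optc, opticin of the vitreous, was at 54.5 and 2.90 CPM at P18, then 5.57 and 71.1 CPM at P21. Endothelium and pericytes gave 0.14 and -0.10 over 14 genes.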

How the results depend on the processing

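The 4 calls (1 higher, 3 lower) were unchanged with DESeq2's scaling and with library size alone. DESeq2 called 120 genes (51 higher, 69 lower), no filter on low counts gave 19 (4 and 15), a term for sex 12 (2 and 10), and the length offset 13 (3 and 10). With only the 4 libraries compared, 2 were called, 1 of them lower, and of the 4 genes Fam177a alone was kept. Without P21 replicate 1 or P21 replicate 2, mt-Atp6 and Fam177a were kept and Prss56 and Gdf1 were not. Same-numbered libraries did not deviate together over all genes (r = 0.0594, 0.0392 without genes of the sex chromosomes), and the labels give no shared animal, litter or day, so the number was not taken as a pairing, although at P18 and P21 it goes with sex and with the interferon lists. A replicate block over the 4 libraries called 0 genes by edgeR (0 higher, 0 lower), with 1236 at an unadjusted p under 0.05. Leaving out 1 library gave 3 to 963 calls (1 to 760 higher, 2 to 203 lower), with 31 (21 and 10) without P18 replicate 1 and 963 without P18 replicate 2, where P18 replicate 1 was the lone library and was assumed to vary like the other groups. Of 139 single genes computed, 12 turned sign. Without P18 replicate 1, 37 of the 139 kept their sign and were smaller by more than 1.5 times, and 5 larger. Over the left-out libraries, the log2 fold change of Ifit3 ran from -2.79 to 0.39, the log2 fold change of Isg15 from -3.67 to 0.56, the log2 fold change of B2m from -1.29 to 0.90, the log2 fold change of H2-K1 from -0.91 to 1.41, the log2 fold change of Cd74 from -2.21 to 1.14, the log2 fold change of Fgf2 from -0.0916 to 3.41, the log2 fold change of Irgm1 from -2.47 to 0.19, the log2 fold change of Tgfb2 from -0.0131 to 0.15, the log2 fold change of Optc from -2.37 to 3.72, the log2 fold change of mt-Atp8 from -0.0534 to 0.17, the log2 fold change of Pde6b from -0.38 to 0.11 and the log2 fold change of Clu from -0.0333 to 0.40. With the length offset the log2 fold change of Tgfb2 was -0.0121. Under the replicate block and the term for sex, B2m gave -0.10 and -0.0904, and Cd74 -0.48 and -0.47. The causes were not tested. Depth (at least 28076947 counts a library) limits genes below about 1 CPM, and 2 libraries per age limit all others.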

Other observations

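Clock genes lay higher at P21 in 9 of 14 members without overlap and lower in 2, against 21% and 22% of all genes. Their median log2 fold change of 0.32 became 0.18 without P18 replicate 1. Nr1d1, the repressor REV-ERB alpha of the core clock, was at 156 and 168 CPM at P18, then 230 and 236 CPM at P21 (0.53, SE 0.12, DESeq2 adjusted p = 0.0607), and the hour of collection was not given in the sources used here. Of 16 genes of glycolysis and lactate 7 lay lower and 1 higher, with a median of -0.21 (-0.08 without P18 replicate 1). Slc16a3, a lactate exporter, was at 89.3 and 123 CPM at P18, then 59.9 and 69.2 CPM at P21 (-0.72, SE 0.17), and Ldha, lactate dehydrogenase A, at 1469 and 1097 CPM and then at 858 and 905 CPM (-0.54, SE 0.16, and -0.31 without P18 replicate 1). Of 11 tested genes of lipid handling 3 lay higher, the sterol exporters Abca1 and Abcg1 and the sterol-esterifying enzyme Soat1 (0.99, 0.41 and 0.69), and 6 lower. The 14 lysosome genes had a median of -0.21 (-0.07 without P18 replicate 1 and 0.05 without P21 replicate 2), with Ctsc, cathepsin C, at 80.9 and 50.8 CPM and then at 41.3 and 31.5 CPM. Of 15 cholesterol synthesis genes 1 lay higher and 2 lower, of 15 photoreceptor synapse genes 4 and 3, of 8 monocyte and macrophage genes 1 and 2, and the 4 oligodendrocyte genes tested had a median of 0.16 (0.04 without P18 replicate 1). In endothelium, Kdr, the VEGF receptor that retinal neurons also express, was at 182 and 245 CPM and then at 418 and 321 CPM (0.79, SE 0.23), while Cldn5, the tight junction protein, gave -0.48.

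Ttc30a2 and Chil1 were named after their values were seen. At a minimum of 20 counts in every library of the other groups or of this group alone, 2 identifiers were lost in P21 and 1 was counted in it alone, against 0 lost and 3 counted alone in P18. In WT P15 2 were lost and in rd10 P15 1, with 0 counted alone in either. Ttc30a2 was at least 58-fold lower at P21. Fgf2, a growth factor induced in stressed retina, had 4907 and 409 counts at P18 and 4739 and 3992 at P21, so that P18 replicate 2 stood with rd10 P15, at 372 and 434. Chil1, a chitinase-like protein of reactive glia, was at 105 and 105 CPM at P18, then 33.0 and 22.3 CPM at P21, against 10.3 and 6.98 in rd10 P15 (-1.93, SE 0.24, adjusted p = 0.0663 by edgeR and 1.86e-09 by DESeq2).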
